A study of Mus musculus with 6 samples.

Results

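Genes of the TGF-beta, BMP and activin signalling pathway were examined in injured mouse muscle as 46 members, chosen by symbol and by role in the pathway (ligands, latent binding proteins, receptors, Smads, inhibitors and targets). All of them are among the 14015 genes with a symbol in the deposited table, but they were named with that table known, so that being listed is not a result. Quadriceps muscle was collected 7 days after volumetric muscle loss, a surgical removal of part of the muscle, without an implant, from 3 WT mice and 3 mice labelled GATA-1 mutant. The mutant strain is ΔdblGATA, in which a GATA site in the promoter of Gata1 is deleted and eosinophils do not develop, and the study's methods describe the WT mice as young adult female C57BL/6. RNA with a poly(A) tail was sequenced from whole muscle.

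The deposited table gives 1 level per gene, the authors' mean log2 CPM (reads of the gene scaled to a common library size) over the samples of both genotypes, beside the authors' own statistics for the genotype comparison, which are not used or repeated here. Values per mouse were not analysed here, so depth is unknown, no error can be set on a level, and no difference between GATA-1 mutant and WT mice is reported. What follows is therefore a description of how strongly each pathway gene was represented in injured muscle, and an order of genes is an order of means whose spread between mice is unknown. In bulk muscle, fewer cells of a type and less RNA per cell cannot be told apart.

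TGF-beta ligands are secreted in a latent form, held by their own propeptide and by latent binding proteins that anchor them in the matrix. Active TGF-beta, activin and myostatin bind type II and type I receptor kinases that phosphorylate Smad2 and Smad3, whereas BMPs act through Smad1 and Smad5, and both arms share Smad4. In skeletal muscle the pathway is known for myostatin, which restrains fibre growth, and for TGF-beta, which drives matrix production after injury.

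The tissue label was checked by marker genes. Myh4 (fast myosin heavy chain) at 14.65 and Acta1 (skeletal actin) at 14.3 log2 CPM were near the top of the table, and the 6 muscle fibre markers ranged from 12.45 to 14.65. Fibroblast markers ranged from 5.73 to 11.67, endothelial markers from 5.64 to 6.53 and macrophage markers from 4.71 (Adgre1, listed under its older symbol Emr1) to 6.15. None of the 5 eosinophil markers (Siglecf, Prg2, Epx, Ccr3 and Il5ra) was listed, and neither was Ly6g of neutrophils. By the authors' description a gene was kept only if 3 or more samples exceeded 1 CPM, and the 3 mutant mice lack eosinophils. A marker that is not listed is therefore not shown to be absent from WT muscle. Neutrophil S100a8 and S100a9 were listed at 0.52 and -0.5 log2 CPM. The red blood cell markers Hbb-bs and Hba-a1 were at 7.53 and 6.65, above the endothelial and macrophage markers. Platelet Pf4 and Itga2b were at 3.77 and 2.09. T cell Cd3e was at -0.42, and Cd3g was not listed.

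The median of the 46 members as deposited was 4.88 log2 CPM against 4.03 for all listed genes, which puts the median member at the 66.4 percentile, and 31 of the 46 exceeded the median gene. The members were named with the table known, and a separate list of 67 further pathway genes, of which 50 were listed, had a median of 3.82, below that of all genes, with 23 of the 50 above it. With the table divided at its quartiles, 6 members fell in the lowest part, 9 and 15 in the middle parts and 16 in the highest. The deposited means ran from -1.0 for Acvr2b to 9.18 for Fstl1.

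Because a long transcript yields more reads than a short one at the same number of molecules, deposited means of different genes are not directly comparable. Each is therefore followed by its level per kb, from which the log2 of transcript length in kb was subtracted (log2 CPM per kb, using the longest coding transcript in GENCODE M21), and orders of genes are given on that scale. On this scale the median member was at 2.71 and the median of all genes at 2.28, and 29 of the 46 members were above the latter. Transcript length was defined in 4 ways, each relative to the median of all genes under the same definition. Under all of them 25 members stayed above that median and 13 below it, while the side of 8 (Ltbp1, Gdf11, Tgfbr3, Bmpr2, Acvr2a, Smad2, Skil and Tgif1) depended on the length chosen.

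**Figure D1:**
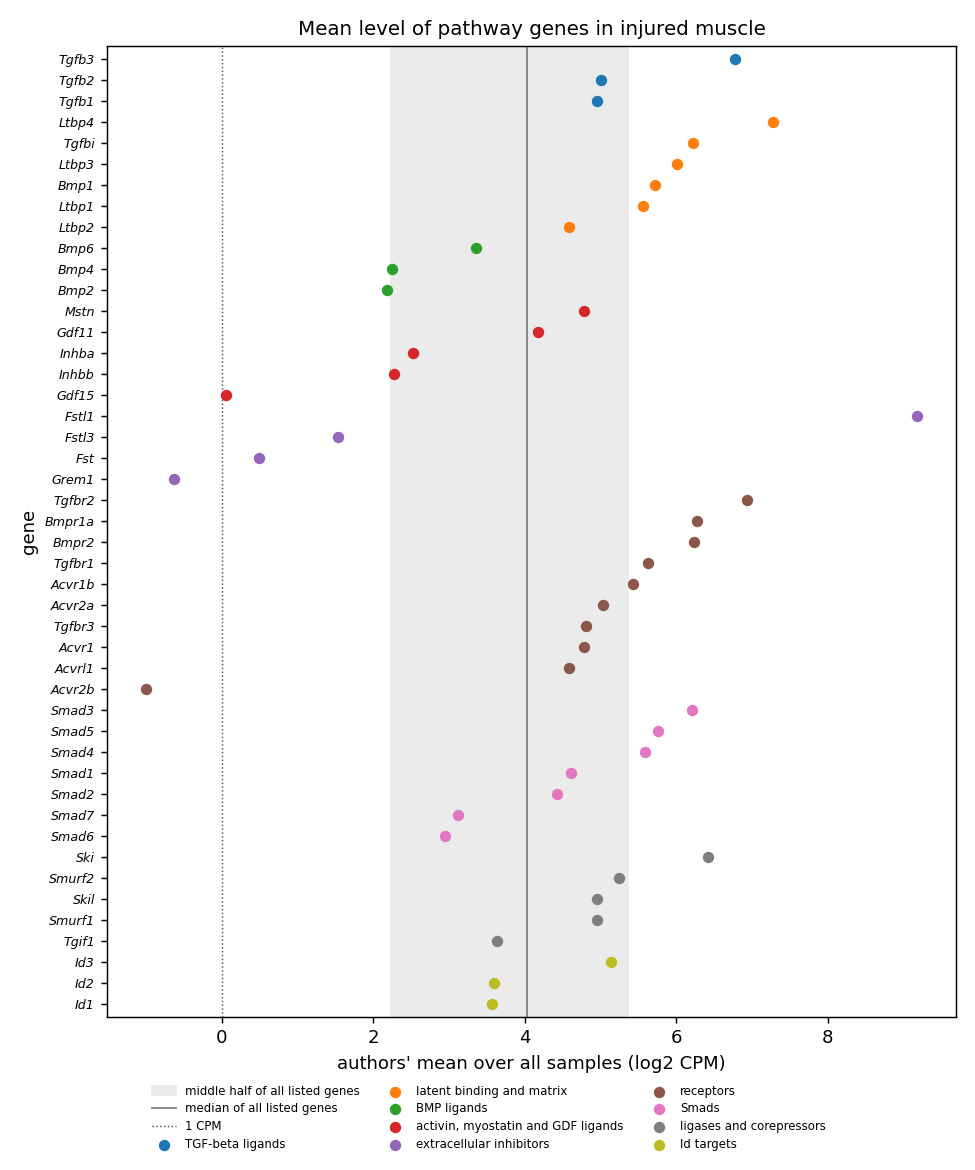
Mean level of each of the 46 pathway genes (x axis, the authors' mean over all samples in log2 CPM; y axis, genes grouped and coloured by role). The grey band runs from the lower to the upper quartile of all listed genes (2.23 to 5.36), the solid line their median and the dotted line 1 CPM. The means run from -1.0 (Acvr2b) and -0.63 (Grem1) to 9.18 (Fstl1) and are not corrected for transcript length.

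The upstream DNA of 4 members is shown, because they stand for the parts of the pathway whose levels are compared below: the ligands Tgfb1 and Tgfb2, Mstn, the ligand made by muscle fibres, and Smad3, the higher of the TGF-beta transducers. Their windows lie wholly outside the GENCODE gene. Each run is the 250 bases before the RefSeq start of the gene, 5′ to 3′ on the gene's strand, in GRCm38.p6, at chr7:25686752-25687001 (plus strand), chr1:186705990-186706239 (minus), chr1:53061390-53061639 (plus) and chr9:63757995-63758244 (minus). Capitals mark matches on either strand to CAGAC (the core of the Smad binding element), GGCGCC (a GC-rich Smad motif) and TATAAA (the TATA box).
Tgfb1: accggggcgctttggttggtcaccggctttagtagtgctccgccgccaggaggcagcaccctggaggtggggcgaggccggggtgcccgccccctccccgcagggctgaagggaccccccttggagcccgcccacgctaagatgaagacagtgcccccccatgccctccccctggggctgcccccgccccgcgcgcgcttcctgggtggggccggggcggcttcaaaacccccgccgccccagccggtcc
Tgfb2: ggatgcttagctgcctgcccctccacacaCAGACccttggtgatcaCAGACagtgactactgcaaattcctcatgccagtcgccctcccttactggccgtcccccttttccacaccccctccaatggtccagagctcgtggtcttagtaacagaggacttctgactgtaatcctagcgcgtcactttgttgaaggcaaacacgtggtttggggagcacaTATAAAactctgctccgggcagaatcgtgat
Mstn: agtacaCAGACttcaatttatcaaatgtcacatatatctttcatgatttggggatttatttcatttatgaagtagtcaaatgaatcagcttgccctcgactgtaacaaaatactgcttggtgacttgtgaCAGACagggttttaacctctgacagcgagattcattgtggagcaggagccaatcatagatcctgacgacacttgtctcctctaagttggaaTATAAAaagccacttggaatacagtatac
Smad3: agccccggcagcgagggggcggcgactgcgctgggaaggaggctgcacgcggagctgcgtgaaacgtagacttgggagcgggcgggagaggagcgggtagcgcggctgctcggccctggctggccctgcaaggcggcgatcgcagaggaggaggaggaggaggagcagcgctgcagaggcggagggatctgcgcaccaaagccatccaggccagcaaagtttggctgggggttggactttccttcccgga

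The windows of Tgfb1 and Smad3 held no match to any of these motifs and were 75.2% and 69.2% G and C. The windows of Tgfb2 (53.6% G and C) and Mstn (38.4%) each held 2 CAGAC matches and 1 TATAAA, which began 31 bases before the start in Tgfb2 and 29 in Mstn.  RefSeq windows were found for 35 members, with 46 windows in all, and 28 of these reach into the gene as GENCODE draws it, so that only 18 are wholly upstream. CAGAC was present in 23 of these windows against 40.9% of the 13262 windows of genes in the deposited table. GGCGCC was present in 23.9% of members' windows and 16.0% of the table's, and TATAAA in 10.9% and 6.88%. Median G and C content was 65.4% in members' windows and 59.6% in those of the table's genes. How often the windows of the table's genes reach into their own genes was not counted. These matches describe letters in the window and not bound sites. Windows are not given for Acvrl1, Bmp1, Bmp2, Fst, Id1, Skil, Smad2, Smad4, Smad7, Tgfb3 and Tgfbr3.

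Among the TGF-beta ligands, Tgfb3 was the highest per kb. The gene lies on chromosome 12 (86056745 to 86079041, minus strand, GRCm38). Its mean level was 6.78 log2 CPM, against 5.01 for Tgfb2 and 4.96 for Tgfb1, the isoform best known from immune cells. Per kb the values were 5.03 for Tgfb3, 3.83 for Tgfb1 and 2.65 for Tgfb2, whose transcript of 5116 nt is longer than the 2175 nt of Tgfb1. Tgfb3 was thus 2.28-fold above Tgfb1 per kb, and between 1.19 and 1.75 higher on the log2 scale across the length definitions. Tgfb1 was above Tgfb2 by 1.18 per kb, but by only 0.03 under the definition that favoured it least, and as deposited Tgfb2 was 0.05 higher. Reads that fit more than 1 gene can be assigned to either, so sharing was measured in stretches of 31 bases, and 41 of the 46 members share under 5% of theirs. In the annotation 9.96% of the 31-base words of the Tgfb3 transcript also occur in another gene, most of them in Gm48008.

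Of the 6 genes for latent binding and matrix proteins, 5 were above the median of all genes per kb, 4 of them under every length definition. Ltbp2 was below it under each, and the side of Ltbp1 depended on the length. Ltbp4, a latent binding protein of elastic fibres, was listed at 7.28 log2 CPM (4.85 per kb). Ltbp3 followed at 6.01 (3.63 per kb), Ltbp1 at 5.56 (2.82) and Ltbp2, which does not bind latent TGF-beta, at 4.59 (1.83). The order from Ltbp3 to Ltbp1 to Ltbp2 held under every length definition, whereas the lead of Ltbp4 over Ltbp3 turned to -0.56 under one of them. Tgfbi, a matrix protein induced by TGF-beta, was at 6.22 log2 CPM (4.78 per kb), and Bmp1, a protease that processes procollagen and latent complexes, at 5.72 (3.84). For Ltbp2, 10.9% of the 31-base words are shared with other genes, most with D030025P21Rik.

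The BMP ligands were all below the median of the table. Bmp6, which controls iron hormone production, was listed at 3.36 log2 CPM, Bmp4 at 2.25 and Bmp2 at 2.18. Per kb they were at 1.51, 1.2 and 0.35, all under the median of the table whichever length was used. Of the BMP ligands in the further list, Bmp5 had a mean level of 4.0 log2 CPM (2.07 per kb). Bmp3 and Bmp7 were far lower, at 0.19 (-2.54 per kb) and -0.26 (-2.14 per kb), and Bmp8a, Bmp8b and Bmp10 were not listed. Bmp6 has 5.64% of such words in common with other genes, chiefly Txndc5.

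In the activin and myostatin group, Mstn was the highest member. This ligand, a brake on muscle growth encoded on chromosome 1 (53061640 to 53068079, plus strand, GRCm38), was at 4.79 log2 CPM and 3.35 per kb. Gdf11, its closest relative, was at 4.18 (2.16 per kb), which is 2.29-fold lower per kb, and the difference stayed between 0.72 and 1.26 on the log2 scale under the length definitions. The activin subunit genes were low, with Inhba at 2.53 log2 CPM (27.9 percentile, -0.14 per kb) and Inhbb at 2.28 (25.6 percentile, 0.19 per kb). Which of them was higher depended on the length, with differences from -0.35 to 0.34. Gdf15, a stress-induced hormone, was listed at 0.05 log2 CPM, close to 1 CPM.

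The extracellular inhibitors spanned the whole range of the pathway. Fstl1, a secreted glycoprotein of the follistatin family made by mesenchymal cells, was the highest member at 9.18 log2 CPM (99.1 percentile) and 7.26 per kb. The gene lies on chromosome 16 (37776873 to 37836514, plus strand, GRCm38). It stood 103-fold per kb above Fstl3, and the log2 difference lay between 6.69 and 7.39 under the length definitions. Fstl3 and Fst, which bind and neutralise activin and myostatin, were at 1.54 and 0.49 log2 CPM, and the order of these genes per kb held throughout. In Fstl3, 58.5% of the 31-base words also lie in another gene, mainly Prss57, so its level is uncertain. Grem1, a BMP antagonist, was at -0.63 log2 CPM and -2.68 per kb, beside Acvr2b at -2.66. Under the coding length it was at 0.23, above Acvr2b at -1.62.

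**Figure D2:**
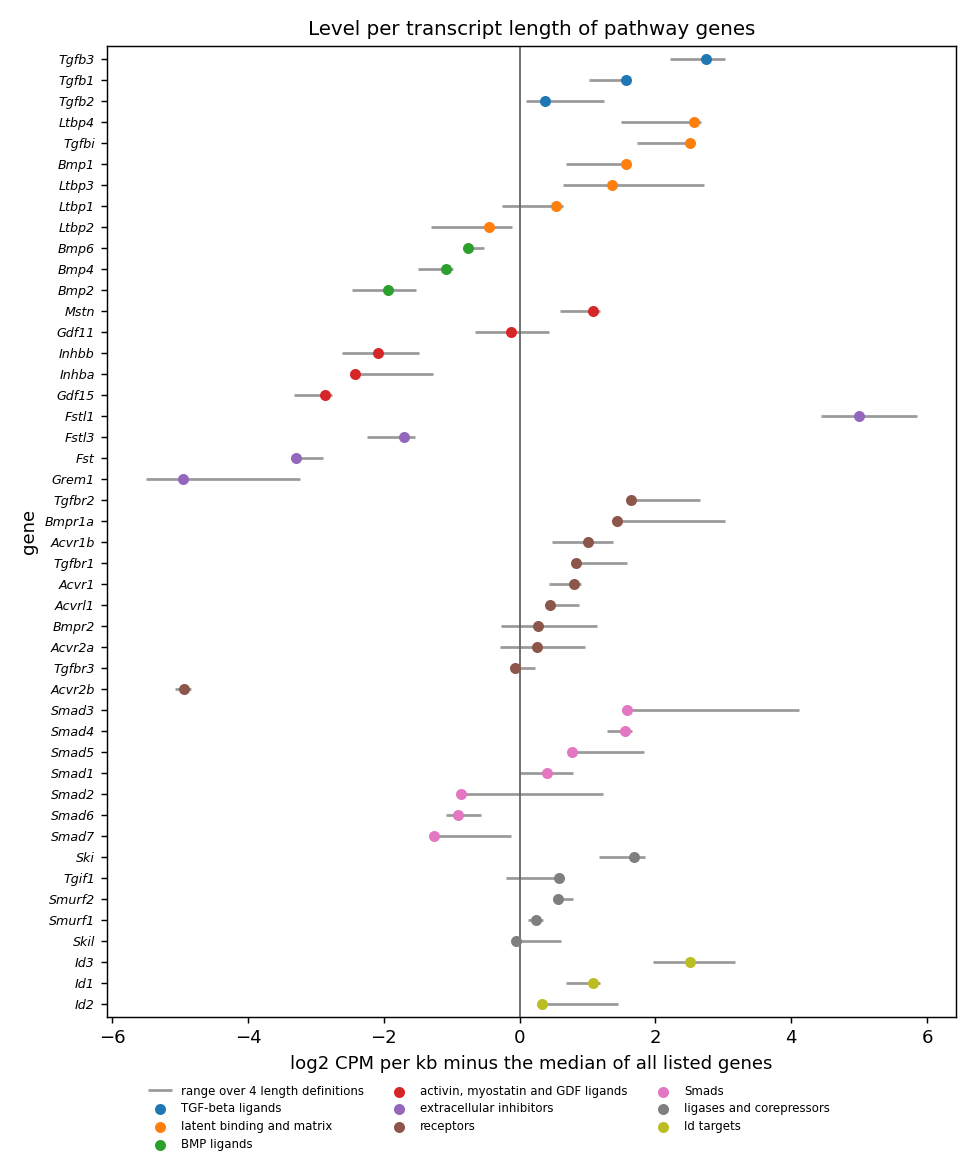
Level per transcript length of each pathway gene (x axis, log2 CPM per kb minus the median of all listed genes; y axis, genes by role). Points use the longest coding transcript, and grey lines span the 4 length definitions. Fstl1 is at 4.99 above the median of all genes, and Grem1 and Acvr2b are at -4.96 and -4.94.

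Of the 10 receptors, whose transcripts are long (median 5721 nt), 9 were above the median of the table as deposited and 8 per kb, 6 of these under every length definition. Tgfbr2, the type II receptor that binds TGF-beta first, was at 6.94 log2 CPM and 3.92 per kb, and Tgfbr1, its signalling partner, at 5.63 and 3.11. The lead of Tgfbr2 over Tgfbr1 was 0.81 per kb but fell to 0.0 under the length definition least favourable to it. Tgfbr3 (betaglycan), a coreceptor that presents TGF-beta2, was at 4.81 (2.2 per kb). On the BMP side Bmpr1a (type I) and Bmpr2 (type II) were deposited at 6.28 and 6.23 log2 CPM. The Bmpr2 transcript is 12899 nt long, and per kb Bmpr1a was at 3.71 and Bmpr2 at 2.54. That order held for every definition of length.

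Among the type I receptors of the activin and ALK families, Acvr1b, which serves activin and myostatin, was at 3.29 per kb, Acvr1, a BMP receptor, at 3.07, and Acvrl1, which is typical of endothelium, at 2.72. Under the median length of coding transcripts the order changed, with Acvrl1 at 3.7, Acvr1b at 3.29 and Acvr1 at 3.26. As a reference, the endothelial markers Pecam1 and Cdh5 were at 4.63 and 4.53 per kb.

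The type II activin receptors differed most of all receptor pairs. Acvr2a was listed at 5.03 log2 CPM and Acvr2b at -1.0, and per kb at 2.53 and -2.66, a ratio of 36.5. Both encode receptors that bind activin and myostatin, on chromosome 2 (48814109 to 48903269) and chromosome 9 (119402118 to 119434995), plus strand in GRCm38. The gap lay between 4.59 and 6.03 on the log2 scale over the length definitions. None of the 31-base words of Acvr2b and 7.36% of those of Acvr2a occur in another gene, for Acvr2a mostly Orc4. Acvr2b and Grem1 were the 2 members with a mean under 1 CPM (0 on the log2 scale), as were 8.55% of all listed genes. The authors describe keeping genes that exceeded 1 CPM in 3 or more samples. If that filter covered these samples alone, a mean under 1 CPM implies that some mice lay above 1 CPM and others below it. The ratio of 36.5 would then rest on a mean over unlike mice, and values per mouse were not examined.

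Among the receptor-activated Smads, the transducers of the TGF-beta arm were unequal. Smad3, on chromosome 9 (63646767 to 63757994, minus strand, GRCm38), was at 6.21 log2 CPM (3.86 per kb) and Smad2 at 4.43 (1.41 per kb), a 5.44-fold difference per kb that stayed between 1.91 and 2.89 on the log2 scale over the length definitions. In the BMP arm Smad5 at 5.76 (3.05 per kb) was above Smad1 at 4.61 (2.69 per kb), and kept that order. Smad4, the partner of both arms, was at 5.59 and 3.83. The inhibitory Smads, which are feedback genes of the pathway, were low, with Smad7 at 3.12 log2 CPM (1.02 per kb) and Smad6 at 2.95 (1.37 per kb). Both were under the median of all genes for each length, and their own order depended on it, with differences from -0.45 to 0.36.

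Of the 5 regulators of Smad turnover and transcription, 3 were above the median of the table under every length, and the side of Skil and Tgif1 depended on it. Ski, a corepressor of Smad complexes, was at 6.42 log2 CPM and 3.96 per kb, against 4.96 and 2.21 for its relative Skil. The difference was 1.74 on the log2 scale per kb (3.35-fold) and fell to 0.56 under the length definition that narrowed it most. The ubiquitin ligases Smurf2 and Smurf1, which act on Smads and receptors, were at 5.25 (2.85 per kb) and 4.95 (2.51). Tgif1, a homeodomain corepressor, was at 3.63 log2 CPM and, with its short coding transcript of 1714 nt, at 2.85 per kb.

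The Id genes encode inhibitors of bHLH factors, MyoD among them, and are immediate targets of BMP signalling. Id3 was listed at 5.14 log2 CPM, and Id2 and Id1 at 3.59 and 3.57. Because their transcripts are short (1278 nt for Id3 and 1160 nt for Id1), they ranked higher per kb, where Id3 at 4.79 ranked 4 among the members and Id1 and Id2 were at 3.35 and 2.61. Id3 led Id1 by at least 1.28 on the log2 scale under every length, and the order of Id1 and Id2 turned under one of them.

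**Figure D3:**
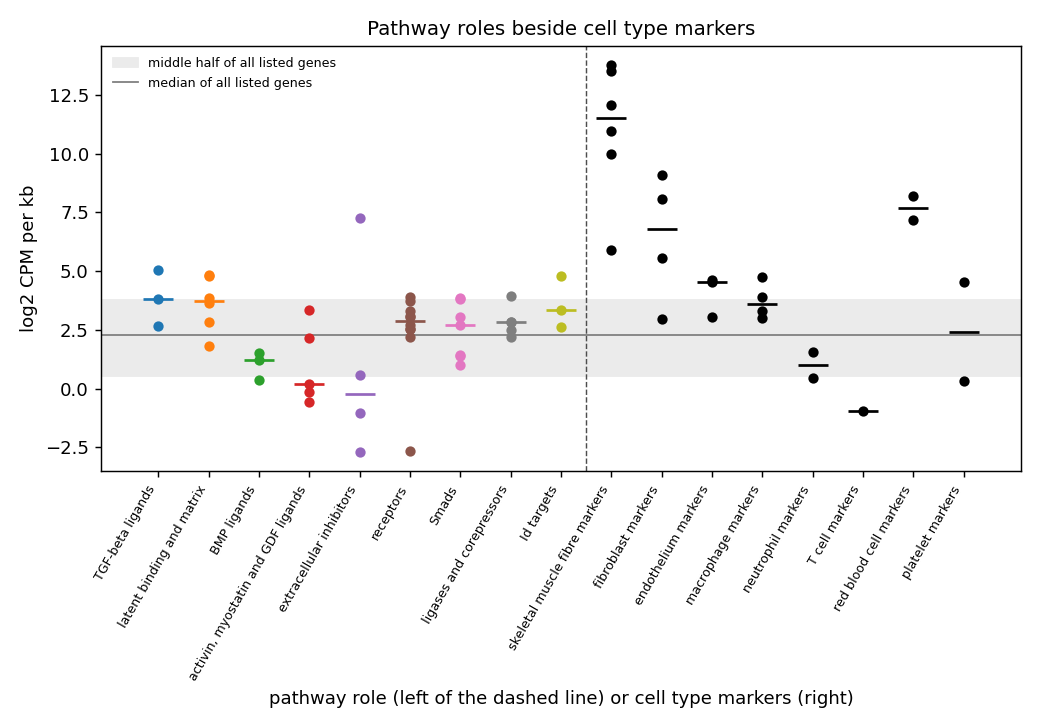
Log2 CPM per kb (y axis) of pathway genes by role, left of the dashed line, and of cell type markers, right of it; each point is a gene, short bars are group medians and the grey band runs from the lower to the upper quartile of all listed genes (0.53 to 3.78). TGF-beta ligands (median 3.83) and latent binding and matrix genes (3.74) lie above BMP ligands (1.2), and muscle fibre markers have a median of 11.53. All values use the longest coding transcript, and the order of groups with close medians depends on that choice.

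Set side by side per kb, the median was 3.83 for TGF-beta ligands, 3.74 for latent binding and matrix genes, 3.35 for Id genes, 2.9 for receptors, 2.85 for ligases and corepressors and 2.69 for Smads. It was 1.2 for BMP ligands, 0.19 for the activin, myostatin and GDF ligands and -0.22 for the extracellular inhibitors. These medians use the longest coding transcript, and group medians were not worked out for the other lengths. Under the median length of coding transcripts, members rose by unequal amounts, from 0.0 to 3.07 (Smad3) on the log2 scale. Ltbp3 went from 3.63 to 5.54 while Tgfb1 stayed at 3.83. The order of groups with close medians therefore depends on the length chosen. The groups hold 3 to 10 genes each, and no test was made between them. For comparison, macrophage markers had a median of 3.61 per kb and endothelial markers of 4.53.

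The 50 listed genes of the further pathway list had deposited means from -0.52 (Gdf5) to 8.88 (Dcn, which encodes the matrix proteoglycan decorin) and a median of 2.04 per kb, against 2.28 for all genes. Among the highest deposited means were those of Dcn, Cdkn1a at 7.62, Fkbp1a at 7.57 and Furin (a protease that matures TGF-beta precursors) at 6.24, which per kb were 8.07 for Dcn, 6.56 for Cdkn1a, 6.84 for Fkbp1a and 4.13 for Furin. The response genes Thbs1, Pmepa1 and Ccn2 (listed as Ctgf) were at 3.57, 3.72 and 3.44 per kb. The 17 that were not listed include Smad9, Nodal, Amh, Inhbc, Inhbe and Sost.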

How the data were processed

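Bulk RNA sequencing of quadriceps 7 days after volumetric muscle loss covered 3 WT and 3 GATA-1 mutant mice. Per the study's methods, the authors pseudoaligned paired-end reads with kallisto, assigned transcripts to genes, computed CPM with edgeR, dropped genes unless 3 or more samples exceeded 1 CPM, took logs, applied TMM normalization and compared genotypes by limma. The submitters' processing notes name GRCm39 (mm39).

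The deposited log2 values used here are the authors' mean log2 CPM of each gene over all samples. The other 5 value columns hold the authors' own genotype comparison (log2 fold change, moderated t, p-value, adjusted p-value and log odds) and were not used. The tests planned for values per sample were therefore not made, and the depth per sample is unknown. The table has 14016 rows, 1 without a symbol.

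Of the symbols, 13458 were found in GENCODE M21 (GRCm38) as written and 482 by way of older RefSeq symbols, which gave 99.5% a length. This build differs from the authors', so it was used for lengths, 31-base words (either strand, longest coding transcript), RefSeq upstream windows and gene positions only. A percentile is the percent of listed genes at or below a level. Calculations used Python 3.11.15 with pandas 2.3.3 and were tested on simulated data. All 46 members are named, by role. Of the further list, Bmp3, Bmp5, Bmp7, Thbs1, Pmepa1 and Ccn2 were named after their values were seen. The members and lists were chosen with earlier results of these data known.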

Additional observations from a re-analysis of the deposited data

How the results depend on the processing

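No paired analysis was possible because only 1 mean per gene, taken over both genotypes, was used. For the same reason the fits without each mouse, with other pseudocounts, filters or normalizations were not run, and the alternative based on RefSeq protein lengths was not run because no protein table was used. The coding length in its place was chosen after seeing the data. The median level of the 46 members per kb was 2.71 with the longest coding transcript, 2.67 with the longest transcript of any kind, 3.25 with the median length of coding transcripts and 4.13 with the coding length. The median of all genes moved with it, from 2.28 to 2.18, 2.82 and 3.46, and the members' median stayed above it under each of these lengths. The percentile of the median member was 66.4 among all genes and 65.9 among protein-coding genes. Among genes whose mean reached 1 on the log2 scale, the median of the 42 members that did so was at the 62.1 percentile. Of 24 neighbouring pairs of relatives, 19 kept their order under all 4 lengths, and 20 had the same order in the deposited means. The 19 include the lead of Tgfbr2 over Tgfbr1, which was 0.0 to 2 decimals under the median length. They also include leads that were at their lowest 0.02 (Bmp4 over Bmp2) and 0.03 (Tgfb1 over Tgfb2, and Acvr1b over Acvr1). With the spread between mice unknown, orders with such small leads are not settled.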
